A study of Mus musculus with 15 samples.

Results

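Active Notch1 was compared with no added Notch1 in splenic regulatory T cells (Treg) that carry a deletion of Rbpj, a comparison that asks which genes intracellular Notch1 changes when RBPJ is missing. The comparison took the 3 arrays of Foxp3EGFPCreR26N1c/N1cRBPJ∆/∆ mice, called N1c_RBPJdel, against the 4 arrays of Foxp3EGFPCreRBPJ∆/∆ mice, called RBPJdel, which are 7 of the 15 arrays of the series, and covered 19752 genes. Both groups carried Foxp3EGFPCre, which places Cre in Foxp3-expressing cells, and both had Rbpj deleted by that Cre. Only N1c_RBPJdel also carried R26N1c/N1c, from which Cre releases the intracellular part of Notch1. The same change with Rbpj intact was read from 8 other arrays, 4 of Foxp3EGFPCreR26N1c/N1c (N1c) and 4 of Foxp3EGFPCre (control). All mice were males of 6 weeks. Cells were sorted from spleen as positive for CD3, TCR beta, CD4 and the green protein of Foxp3, and each array pooled cells of several mice. A FACSAria sorted the cells of the 3 N1c_RBPJdel arrays and a MoFlo those of the other 12, so the effect of active Notch1 and that of the sorter cannot be told apart here. The labels do not say that arrays came from separate pools of animals, and p-values measure the spread between arrays. The arrays also cannot tell fewer cells of a type from less RNA per cell.

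When a Notch receptor meets its ligand, its intracellular part is cut free, enters the nucleus and joins RBPJ on DNA, where RBPJ turns from a repressor into an activator. Hes1, Hey1, Heyl, Nrarp and Dtx1 are classical genes of this route. The same fragment is also described outside the nucleus, where it acts through the Rictor-containing mTOR complex and Akt on the survival of Treg. Treg hold back immune responses and depend on Foxp3.

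Arrays 1 and 3 of N1c_RBPJdel stood apart from the others in their range before any gene was considered. The interquartile range of an array, which is the log2 width of the middle part of its values, was 2.58 and 2.56 in arrays 1 and 3 of N1c_RBPJdel, narrower than in any other array (2.69 to 3.06), and 2.93 in array 2. In arrays of narrow range dim genes lie higher and bright genes lower. Of the 19752 genes, 261 were higher (1.32%) and 191 lower (0.967%) in N1c_RBPJdel than in RBPJdel at an adjusted p under 0.05, or 452 in either direction (2.29%). A change here is a difference of group means of log2 intensity with its limma standard error (SE). Of the genes called higher, 171 lay among the dimmest 4938 genes by mean intensity and 20 among the brightest 4938, and of those called lower 3 and 130. The median log2 difference was 0.14 in the dimmest and -0.13 in the brightest of these sets, against -0.01 and -0.02 for N1c minus control. Genes called higher had a median intensity of 32.3, and they held 45 olfactory receptor genes (17.2% of these calls against 5.2% of all genes) and 16 microRNA genes (6.1% against 1.46%), classes picked out after the values were seen. Of the 261 genes, 184 lay above all 12 MoFlo arrays, and of the 191 genes 102 lay below all of them, against 2.35% and 2.47% of all genes. The part of the sorter or of the array range in these calls was not tested beyond the alternatives given here. With quantile normalization 467 genes passed and 294 of the 452 were among them, and with the array range as a covariate 373 passed and 256 were among them. Leaving out 1 array moved the count far. It was 76 without array 1 of N1c_RBPJdel, 1890 without array 2, 121, 112 and 79 without arrays 1, 2 and 3 of RBPJdel, and 300 without array 3 of control. With array 2, the one of ordinary range, standing alone for N1c_RBPJdel, 226 genes passed, of which 60 were among the 452.

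**Figure D1:**
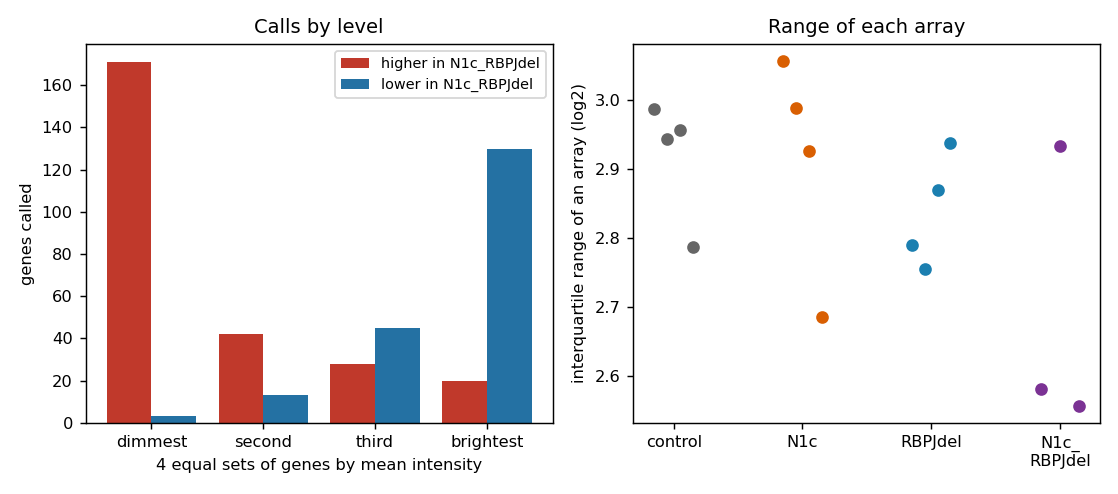
Left, the number of genes called higher or lower in N1c_RBPJdel against RBPJdel in each of 4 equal sets of genes by mean intensity. Right, the log2 interquartile range of each array by group, 1 point an array. Calls of higher genes fall from 171 to 20 and calls of lower genes rise from 3 to 130 between the dimmest and the brightest set, and arrays 1 and 3 of N1c_RBPJdel have the narrowest ranges.

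The markers that define Treg were present on every array. Foxp3, the factor that defines Treg, lay between 3543 and 6248 in all 15 arrays, and Il2ra, Ctla4, Ikzf2, Cd4 and Cd3e were at 1249.8 or more on every array. Foxp3 differed by -0.34 ± 0.13 (SE, n = 3 and 4), which did not pass the test (adjusted p = 0.15) and passed it without array 2 of N1c_RBPJdel and with the replicate block over all arrays. Rbpj lay at 260, 294, 293 and 225 in the RBPJdel arrays and at 175, 258 and 201 in the N1c_RBPJdel arrays, against 470.3 to 572 in the 8 arrays with intact Rbpj. On this probe set, the brightest of Rbpj, both groups of the comparison therefore lay below every array with intact Rbpj. Between them Rbpj differed by -0.35 ± 0.13, with overlapping arrays and an adjusted p of 0.14, and it too passed without array 2 of N1c_RBPJdel and with that block. The remaining Rbpj signal was not assigned to undeleted cells or to exons outside the deletion. Notch1 lay between 896 and 1239 in N1c_RBPJdel and between 1211 and 1613 in RBPJdel (-0.40 ± 0.20, adjusted p = 0.258), and passed with the block alone. Its probes run along the whole gene, so this level does not check the released fragment.

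Without Rbpj, Dtx1 was the one of the 5 classical Notch targets that rose with active Notch1, and Hes1, Hey1, Heyl and Nrarp did not pass the test. Cd22, a gene outside that list with the largest rise of those named here when Rbpj was intact, rose too. Hes1, a transcriptional repressor, lay at 62.3, 74.4, 50.6 and 76.8 in RBPJdel and at 62.9, 108 and 70.6 in N1c_RBPJdel. The arrays overlapped, with array 2 of N1c_RBPJdel the highest. The log2 difference was 0.27 ± 0.27 (adjusted p = 0.594), against 3.25 ± 0.25 in N1c minus control, where Hes1 lay between 412 and 1064 in N1c. The difference between both changes, called the interaction, was -2.99 (adjusted p = 0.000462). Heyl, a related repressor, was at 96.0 to 122 in RBPJdel and 114 to 120.1 in N1c_RBPJdel (0.14 ± 0.11, adjusted p = 0.507, interaction -2.43). Nrarp, which feeds back on Notch, differed by -0.13 ± 0.24 (adjusted p = 0.784). Its interaction of -1.60 passed (adjusted p = 0.0254) and lost its call in 9 of 26 alternatives.

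Hey1, the third repressor, lay at 90.5, 103, 83.3 and 95.7 in RBPJdel and at 114, 149 and 125 in N1c_RBPJdel. All 3 N1c_RBPJdel arrays were above all 4 RBPJdel arrays, as for 7.38% of all genes. The difference of 0.47 ± 0.13 missed the threshold (adjusted p = 0.0592). It passed with cyclic loess normalization, with the replicate block over all arrays, and without array 5 of N1c or array 5 of control. It compares with 2.28 ± 0.12 with Rbpj intact, and the interaction was -1.80 (adjusted p = 2.46e-05).

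Dtx1, a ubiquitin ligase that binds Notch, lay at 367, 457, 338 and 359 in RBPJdel and at 629.6, 1276 and 630.3 in N1c_RBPJdel. Every N1c_RBPJdel array was above every RBPJdel array, and array 2 stood at about the level of the lowest control array (1242). Dtx1 rose by 1.08 ± 0.23 (adjusted p = 0.0252), and by 1.47 ± 0.21 with Rbpj intact. The interaction of -0.39 did not pass (adjusted p = 0.636), and its 95% interval of -1.04 to 0.26 leaves room for a smaller change without Rbpj. Dtx1 itself was lower in RBPJdel than in control by -2.12 ± 0.21, a comparison that shares the RBPJdel arrays. The call ended without array 1 of RBPJdel and in 2 more of 28 alternatives.

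Cd22, a sialic acid-binding receptor known from B cells, lay at 73.9, 64.4, 61.6 and 64.4 in RBPJdel and at 131, 195 and 115 in N1c_RBPJdel. The groups did not overlap and array 2 was again the highest. Cd22 rose by 1.12 ± 0.17 (adjusted p = 0.00613), a call kept in all 28 alternatives. With Rbpj intact it rose by 4.00 ± 0.16, from 72.6 to 95.3 in control to between 1095 and 1814 in N1c, and the interaction of -2.88 passed the test (adjusted p = 3.76e-06). Of the 15 genes in the list of Notch targets, which does not hold Cd22, 1 rose (Dtx1) and 1 fell (Igf1r) without Rbpj, against 6 and 2 with Rbpj intact. There were 0 rises without array 1 or 3 of RBPJdel, where 121 and 79 of all genes passed. Over all genes 1890 passed without array 2 of N1c_RBPJdel. There were 0 falls without array 1 or 3 of N1c_RBPJdel or array 1, 2 or 3 of RBPJdel, 3 without array 2 of N1c_RBPJdel and 2 without array 4 of RBPJdel.

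**Figure D2:**
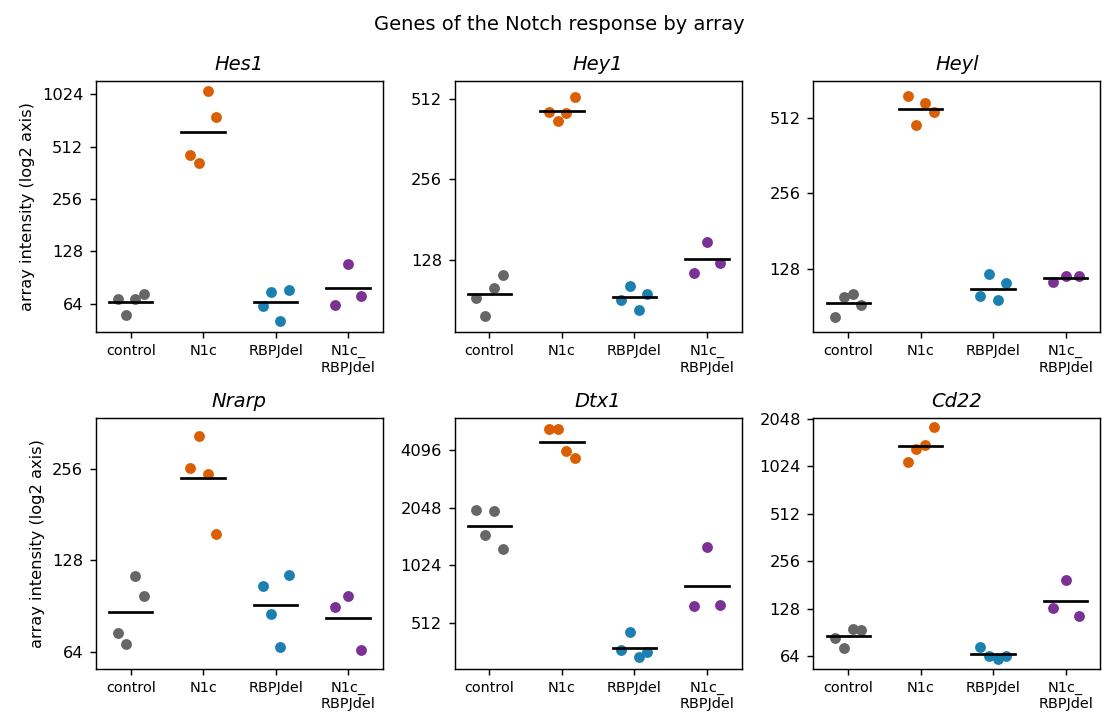
Array intensity on a log2 axis of Hes1, Hey1, Heyl, Nrarp, Dtx1 and Cd22 in the 4 groups, 1 point an array, with the geometric mean as a line. N1c stands above the other groups for each gene, and N1c_RBPJdel lies above RBPJdel without overlap for Hey1, Dtx1 and Cd22.

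The starts of Cd22, Dtx1 and Gjb2, which rose in both settings, are shown because RBPJ is known to bind a core of TGGGAA. They are the 250 bases before the start in RefSeq on GRCm38.p6, on the minus strand, read 5′ to 3′, with TGGGAA or its reverse complement TTCCCA in capitals.
Cd22, chr7:30879029-30879278: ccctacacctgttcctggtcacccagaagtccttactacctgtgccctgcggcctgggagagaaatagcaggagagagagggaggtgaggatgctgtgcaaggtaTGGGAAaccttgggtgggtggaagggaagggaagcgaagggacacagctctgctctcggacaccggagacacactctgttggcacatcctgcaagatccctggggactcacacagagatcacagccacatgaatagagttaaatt
Dtx1, chr5:120711670-120711919: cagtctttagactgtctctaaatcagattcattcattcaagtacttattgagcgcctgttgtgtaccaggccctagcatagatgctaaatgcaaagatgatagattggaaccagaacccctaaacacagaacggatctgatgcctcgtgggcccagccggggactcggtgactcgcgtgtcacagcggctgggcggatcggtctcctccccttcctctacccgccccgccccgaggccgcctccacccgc
Gjb2, chr14:57104703-57104952: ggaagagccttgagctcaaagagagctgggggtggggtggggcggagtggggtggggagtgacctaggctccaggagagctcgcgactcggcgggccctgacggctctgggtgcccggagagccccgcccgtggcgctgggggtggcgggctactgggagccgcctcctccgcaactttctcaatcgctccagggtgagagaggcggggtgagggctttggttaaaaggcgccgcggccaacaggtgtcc
Cd22 held 1 match, which starts 145 bases before the start, and Dtx1 and Gjb2 held 0 in this window. TGGGAA on either strand was present in 23.9% of the 15483 promoters of 300 bases (250 before and 50 after the start) that the table held for the genes tested. The share was 25.7% of the promoters of genes higher in N1c than in control, 22.5% of those higher in N1c_RBPJdel than in RBPJdel, and 7 of 24 (29.2%) of those called in both in the same direction. A match is a description of the letters and not a bound site.

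The genes that active Notch1 changed with Rbpj intact were followed into the comparison without Rbpj. With Rbpj intact 326 genes passed (1.65%), 185 higher (0.937%) and 141 lower (0.714%) in N1c than in control, on arrays that the comparison without Rbpj does not use. The fit with the replicate number as a block gave 494, and 217 passed without array 4 of control. For 231 of the 326 (70.9%) the change without Rbpj had the same sign, against 53.8% of all genes. The median ratio of the change without Rbpj to that with it was 0.19 (quartiles -0.06 and 0.45), and 0.17, 0.23 and 0.17 when each N1c_RBPJdel array was taken alone. The interaction passed for 166 of all genes (0.84%) and for 101 of the 326. The 326 were chosen by their change with Rbpj intact, which also enters the ratio and the interaction, so the choice favours a smaller change without Rbpj, and both are given for these genes as a description. It passed for 478 genes without array 2 of N1c_RBPJdel, and for 101, 102 and 101 without arrays 1, 2 and 3 of RBPJdel.

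Of the 185 genes higher in N1c, 7 were also called higher without Rbpj (3.78%, against 1.32% of all genes), 2 were called lower, and the median ratio was 0.12. Of the 141 lower in N1c, 21 were also called lower (14.9%, against 0.967% of all genes), and the median ratio was 0.37. This gap between the directions went with the scaling: after quantile normalization the ratios were 0.19 and 0.20, and after cyclic loess 0.20 and 0.18. Among the brightest 4938 genes lay 81 of the 185 genes higher and 71 of the 141 lower in N1c. Among the genes with the strongest interaction, Dnase1l3, a secreted nuclease, rose by 3.45 ± 0.18 with Rbpj intact and lay at 35.6 to 41.1 in RBPJdel and 36.6 to 67.5 in N1c_RBPJdel. Atp8a2, a phospholipid flippase, rose by 3.25 ± 0.12 with Rbpj intact and differed by 0.19 ± 0.13 without it (adjusted p = 0.421).

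**Figure D3:**
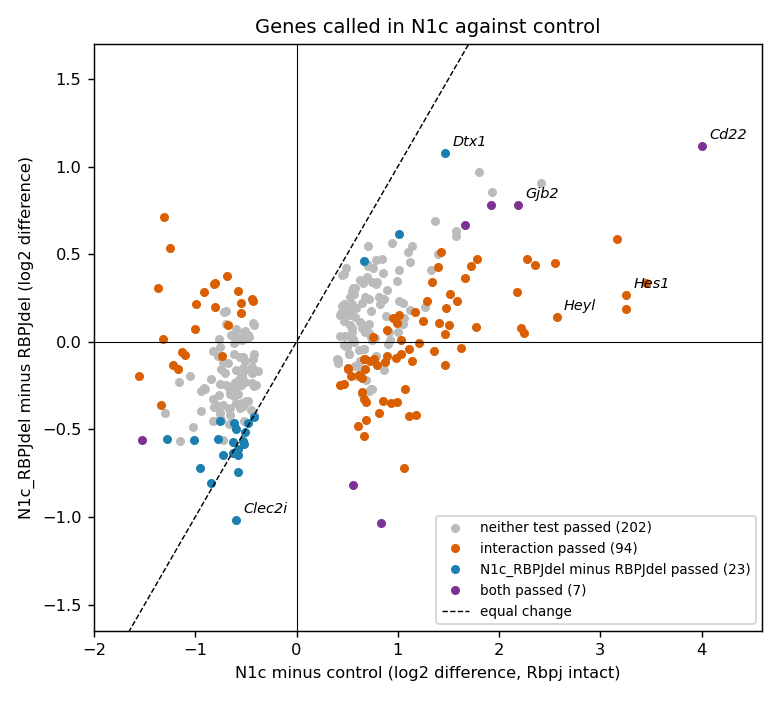
The 326 genes called in N1c minus control, by their log2 difference with Rbpj intact (horizontal) and without Rbpj (vertical), with the line of equal change dashed. Orange points passed the interaction alone (94), blue points N1c_RBPJdel minus RBPJdel alone (23), purple points both (7) and grey points neither (202). Most higher genes lie below the dashed line, and Dtx1 and Clec2i lie near it or beyond.

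Of the genes called in both settings, 28 changed in the same direction, 7 higher and 21 lower. They are 6.19% of the 452 calls without Rbpj and 8.59% of the 326 with Rbpj. The count fell to 3 without array 1 of N1c_RBPJdel and 16 without array 3, and was 45 without array 2. It was 3, 5 and 5 without arrays 1, 2 and 3 of RBPJdel, and 15 and 14 without arrays 2 and 3 of control. Of the 28, 12 were also called after quantile normalization, after cyclic loess and with the array range as a covariate. These were Cd22, Dtx1, Gjb2, Cst7, Abcb1a and Scin among the higher and Clec2i, Igf1r, Bach2, Il4ra, S1pr1 and Treml2 among the lower, singled out after their values were seen. Clec2i was the one of the 28 for which all 3 N1c_RBPJdel arrays lay beyond all 12 MoFlo arrays.

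Besides Dtx1 and Cd22 the higher genes were Gjb2, Cst7, Abcb1a, Gpr15 and Scin. Gjb2, a gap junction protein, lay at 69.2, 82.1, 73.4 and 65.1 in RBPJdel and 115, 132 and 126 in N1c_RBPJdel, without overlap. It rose by 0.78 ± 0.16 (adjusted p = 0.0211), against 2.18 ± 0.15 with Rbpj intact, and the interaction passed (adjusted p = 0.003). Abcb1a, a drug efflux pump, lay at 202.5, 192, 167 and 255 in RBPJdel and 359, 267 and 344 in N1c_RBPJdel and rose by 0.67 ± 0.14 (adjusted p = 0.0265), against 1.66. The call of Gjb2 ended in 5 and that of Abcb1a in 8 of 28 alternatives, in which the change of Abcb1a was as low as 0.36. Cst7, an inhibitor of lysosomal proteases, rose by 0.78 ± 0.17 (adjusted p = 0.0294), against 1.92. For these 3 genes and Cd22 the interaction passed, so the rise without Rbpj was smaller. Gpr15, a homing receptor for the colon, rose by 0.62 ± 0.14 and Scin, an actin-severing protein, by 0.46 ± 0.10, against 1.02 and 0.67, with no call of the interaction. RBPJdel itself was -0.88 ± 0.15 from control for Gjb2 and -1.02 ± 0.13 for Abcb1a, comparisons that share the RBPJdel arrays. The N1c_RBPJdel means of Gjb2 and Abcb1a were 124 and 321, not above the 133 and 408 of control. For Cd22, Cst7, Gpr15 and Scin the N1c_RBPJdel mean lay above that of control.

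The 21 lower genes include Bach2, S1pr1, Igf1r, Il4ra and Bcl2, and the interaction passed for 1 of the 21, Ms4a4c. Bach2, a repressor that holds T cells in a resting state, lay at 1053, 1062, 908 and 858 in RBPJdel and at 486, 699.7 and 566 in N1c_RBPJdel. The groups did not overlap, as for 8.45% of all genes with N1c_RBPJdel the lower. Bach2 fell by 0.74 ± 0.13 on the log2 scale (adjusted p = 0.0119), against -0.58 ± 0.12 with Rbpj intact, and the interaction was -0.17 (95% interval -0.54 to 0.21, adjusted p = 0.74). S1pr1, the receptor for leaving lymphoid organs, lay at 2318, 2235, 2139 and 1916 in RBPJdel and at 1434, 1491 and 1375 in N1c_RBPJdel. It fell by 0.58 ± 0.12 (adjusted p = 0.0244), against -0.52 ± 0.11, with an interaction of -0.06 (-0.41 to 0.29). Igf1r, the receptor of insulin-like growth factor, fell by 0.80 ± 0.17, from between 759.8 and 884 to between 402 and 605, against -0.84 ± 0.16. Il4ra, a chain of the interleukin 4 receptor, fell by 0.61 ± 0.13, from between 1271 and 1641 to between 812 and 1010, against -0.58 ± 0.12.

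Clec2i, a C-type lectin, fell by 1.02 ± 0.14 (adjusted p = 0.00242), from 767 to 956 in RBPJdel to 385 to 472 in N1c_RBPJdel, below all 12 MoFlo arrays, against -0.60 ± 0.13 with Rbpj. Bcl2, which blocks apoptosis, fell by 0.47 ± 0.11 (adjusted p = 0.0424), against -0.61 ± 0.11, and its call ended in 15 of 28 alternatives. Without Rbpj, Bach2 lost its call in 4 alternatives, S1pr1 and Treml2 in 6, Igf1r in 7 and Il4ra in 8, of 28. A place among the 28 genes also needs the call with Rbpj intact. That call ended in 6 of 27 alternatives for Clec2i, 5 for S1pr1 and 4 each for Bach2 and Il4ra. For Igf1r, Treml2 and Bcl2 it ended in 0. The remaining lower genes, with falls between 0.43 and 0.72, are Itih5, Sema4a, Plec, Nup210, Ncoa3, Fry, Ms4a4c, Gpr146, Flicr, Cybrd1, Gpd2, Lrrc8d, Stk38 and 4930523C07Rik. Among them Ms4a4c had a called interaction (0.96, adjusted p = 0.0105), with the smaller fall in the absence of Rbpj. The opposite direction was seen for H1f1 and H2ac15, histone genes that were higher with active Notch1 when Rbpj was intact (0.56 and 0.83) and lower without it (-0.82 and -1.04). With Rbpj intact the call of H1f1 ended in 14 and that of H2ac15 in 5 of 27 alternatives, and without Rbpj in 1 and 7 of 28.

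Other genes changed by as much or more in N1c_RBPJdel with no call when Rbpj was intact. Atp5md, a minor subunit of ATP synthase in mitochondria, lay at 3275, 2292, 3677 and 3685 in RBPJdel and at 755, 708 and 588 in N1c_RBPJdel. It was below all 12 MoFlo arrays and fell by 2.22 ± 0.15 (adjusted p = 6.05e-07). Its other probe sets read 1868 and 1841 in RBPJdel against 453 and 425 in N1c_RBPJdel. Whether its probe sets read independent sequences was not tested. With Rbpj intact Atp5md differed by 0.42 ± 0.14 (adjusted p = 0.216). Of 29 subunits of oxidative phosphorylation measured, Atp5md was the one called.

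Kcnf1, a potassium channel subunit, fell by 1.25 ± 0.16 (adjusted p = 0.0011), from 113 to 157 in RBPJdel to 45.9 to 66.6, which overlaps the 48.2 to 71.9 of the control and N1c arrays. RBPJdel is thus the group that stood out, 1.20 ± 0.15 above control, a comparison that shares the RBPJdel arrays. Cnpy2, an endoplasmic reticulum protein, fell by 1.04 ± 0.12 (adjusted p = 0.000766) and Foxn3, a forkhead repressor, by 0.85 ± 0.13 (adjusted p = 0.00662). Both lay below all 12 MoFlo arrays and were called in every alternative. The place of Foxn3 is that of its brightest probe set. Its other probe set fell less, from a mean of 749.9 in RBPJdel to 527.4 in N1c_RBPJdel. Etv3, an ETS repressor (-0.86), Celsr1, a cadherin (-0.87), and Kcnk5, a potassium channel (-0.97), also fell. Igfbp4, which binds insulin-like growth factors, fell from 553 to 952 in RBPJdel to 257 to 552 in N1c_RBPJdel, with a call that ended in 17 alternatives. Rps3a1 (-0.90) has near-identical copies in the genome and its value is uncertain.

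Among the genes that rose, Klrg1, an inhibitory receptor of mature effector lymphocytes and Treg, lay at 433, 442, 344 and 478 in RBPJdel and at 970.2, 963 and 728 in N1c_RBPJdel. All 3 arrays were above all 12 MoFlo arrays. Klrg1 rose by 1.06 ± 0.17 (adjusted p = 0.00662), a call kept in all 28 alternatives, while with Rbpj intact it differed by -0.19 ± 0.16, and the interaction passed (1.25, adjusted p = 0.0118). Cd24a, a surface glycoprotein, lay at 49.9 to 74.0 in RBPJdel and 170.4 to 182 in N1c_RBPJdel and rose by 1.56 ± 0.24 (adjusted p = 0.00613). Ccl3, an inflammatory chemokine, rose by 1.21 ± 0.22 (adjusted p = 0.0122), from 55.3 to 64.7 to between 117 and 173. Ccr2, a receptor for inflammatory chemokines, rose by 0.93 ± 0.19, and Ly96, a partner of a Toll-like receptor, by 1.17 ± 0.28, the latter with a call that ended in 12 alternatives. Penk, the precursor of enkephalins, rose by 1.01 ± 0.24 (adjusted p = 0.0404), from 188 to 255 in RBPJdel to 335 to 554 in N1c_RBPJdel, both below the 605 to 887 of control. RBPJdel itself was -1.80 ± 0.23 from control for Penk, in a comparison that shares its arrays, and the call ended in 12 alternatives.

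For Zfp979, a zinc finger gene, and Rab6b, a small GTPase, the arrays of other groups were split. Zfp979 lay at 9.53 to 10.5 in RBPJdel and 160.0 to 232 in N1c_RBPJdel, but also at 8.82 in array 3 of control and 10.7 in array 2 of N1c against 165 to 319 in the other arrays of these groups. Rab6b lay at 271 to 541 in RBPJdel and 119 to 161 in N1c_RBPJdel, and at 473 and 341 in the same arrays of control and N1c against 124 to 161 in the rest. The levels of both genes thus divided arrays within a genotype.

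**Figure D4:**
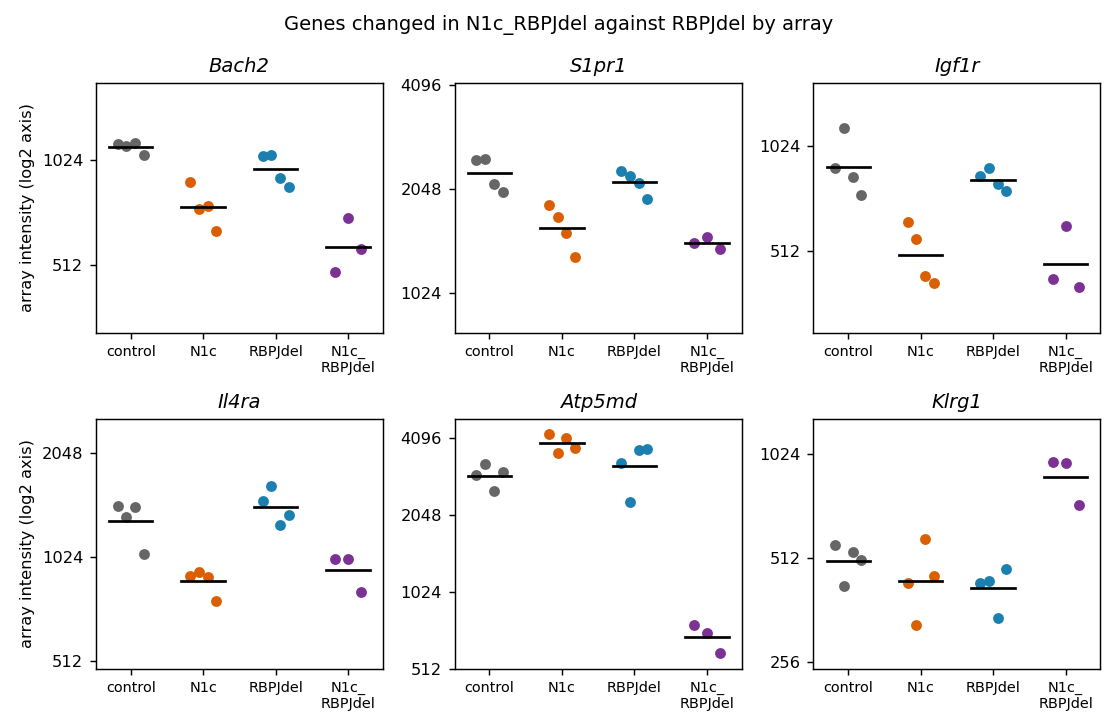
Array intensity on a log2 axis of Bach2, S1pr1, Igf1r, Il4ra, Atp5md and Klrg1 in the 4 groups, 1 point an array, with the geometric mean as a line. The first 4 genes are low in N1c and N1c_RBPJdel alike, while Atp5md is low and Klrg1 high in the N1c_RBPJdel arrays only, of the 15 shown.

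Lists of genes were read by counts and by their median. Over all genes the median was -0.01, and 1.32% were called higher and 0.967% lower. With 1 array left out the calls over all 19752 genes differed. They were 76, 1890 and 462 without arrays 1, 2 and 3 of N1c_RBPJdel. Without arrays 1, 2, 3 and 4 of RBPJdel they were 121, 112, 79 and 421. Counts of lists and of cell type markers that move with these totals are not read as results about the lists. The resting T cell list had the most falls, 5 of 14 (Bach2, Satb1, S1pr1, Bcl2 and Igfbp4) and 0 rises, with a median of -0.40 (-0.16 with Rbpj intact). Its median was -0.28 after quantile normalization, with 4 falls, and -0.21 with 1 fall for array 2 of N1c_RBPJdel alone. Leaving out an array gave 1 (array 1 of N1c_RBPJdel) to 6 falls (array 2), and 2 without arrays 1, 2 or 3 of RBPJdel. Satb1, a chromatin organiser of T cells, lay at 1801 to 2065 in RBPJdel and 1155 to 1384 in N1c_RBPJdel, below all 12 MoFlo arrays (-0.63 ± 0.11, adjusted p = 0.0122).

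The mTOR, PI3K and Akt list, which holds the parts of the route described outside the nucleus, had 0 rises and 1 fall of 27, and 4 falls without array 2 of N1c_RBPJdel. The fall was that of Foxo1, a factor that Akt keeps out of the nucleus (-0.47 ± 0.11, adjusted p = 0.0377), which lay at 1630 to 1983 in RBPJdel and 1135 to 1482 in N1c_RBPJdel, and the call ended in 15 alternatives, quantile normalization among them. Of 16 genes activated by Foxo1 or bound by it, 2 fell, S1pr1 and Bach2, with 0 falls without array 1 of N1c_RBPJdel, 1 without array 1, 2 or 3 of RBPJdel and 3 without array 2 of N1c_RBPJdel. The Notch pathway list had 0 rises and 1 fall of 32, Spen, a corepressor partner of RBPJ (-0.80 ± 0.18, adjusted p = 0.0323), with a call that ended in 9 alternatives. That list had 1 rise and 4 falls without array 2 of N1c_RBPJdel, where 1890 of all 19752 genes passed. The mTOR list and the Notch pathway list both had 0 falls without array 1 or 3 of N1c_RBPJdel or array 1, 2 or 3 of RBPJdel, and the mTOR list had 1 rise without array 3 of N1c_RBPJdel.

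Effector Treg genes had a median of 0.32 (0.40 with Rbpj intact), with 19 of 23 positive but 1 call, Klrg1. The list had 3 rises with quantile normalization and 3 with cyclic loess, and its median was 0.19 without array 2 of N1c_RBPJdel and 0.57 with that array alone. Its members Il10 and Gzmb, an anti-inflammatory cytokine and a granule protease, differed by 0.91 and 0.86 (adjusted p = 0.227 and 0.0955), against called rises of 2.41 and 1.93 with Rbpj intact. The Treg signature had 1 rise (Klrg1) and 0 falls of 27, with 4 falls without array 2 of N1c_RBPJdel and 1 without array 4 of RBPJdel. Homing receptors had 3 rises (Ccr2, Ccr3 and Gpr15) and 1 fall (S1pr1) of 23. There was 1 rise and 0 falls without array 1 of N1c_RBPJdel or array 1, 2 or 3 of RBPJdel. Without array 2 of N1c_RBPJdel there were 2 falls and the median went from 0.28 to 0.11.

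Cell cycle genes had 0 calls by limma of 36 and a median of -0.43 with 35 negative, against 0.54 and 3 rises with Rbpj intact. At an unadjusted p under 0.05 17 of the 36 passed. The share of all genes at that cut is not given here, so this count cannot be set against them. Top2a, which untangles DNA, lay at 313, 390.3, 363 and 155 in RBPJdel and 147, 127 and 141 in N1c_RBPJdel, so that array 4 of RBPJdel was near the N1c_RBPJdel arrays. Without that array the list had 6 falls and a median of -0.62, and without array 2 of N1c_RBPJdel 2 falls. The interaction passed for Rrm2, which makes deoxynucleotides (-1.71, adjusted p = 0.0469), and Ube2c, a mitotic ubiquitin-conjugating enzyme (-1.60, adjusted p = 0.041), of the 36.

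The other lists held few calls. Th1 genes had 1 rise (Ccl3) of 15, Th2 genes 1 fall (Il4ra) of 12, apoptosis genes 1 fall (Bcl2) of 17, interferon response genes 1 fall (Stat2) of 26 and T cell receptor genes 1 fall (Prkcq) of 25. Stat2, which carries interferon signals, fell by 0.56 ± 0.14 and Prkcq, a kinase of T cell receptor signalling, by 0.37 ± 0.09, with calls that ended in 14 and 18 alternatives. Th17, Tfh, glycolysis, ribosomal protein and immediate early or heat shock genes had 0 calls by limma of 9, 13, 17, 18 and 23. At an unadjusted p under 0.05 they had 4, 3, 5, 5 and 0 members, again without the share of all genes at that cut. Without array 2 of N1c_RBPJdel, where 1890 of all 19752 genes passed, there were 4 falls of T cell receptor and 3 of interferon response genes. Glycolysis genes then had 3 falls and ribosomal protein genes 1. The falls of apoptosis, interferon response and T cell receptor genes were 0 without array 1 of N1c_RBPJdel or array 1, 2 or 3 of RBPJdel. In these fits 76, 121, 112 and 79 of all genes passed. That of interferon response genes was also 0 without array 3 of N1c_RBPJdel. The fall of Th2 genes was 0 without array 1 or 3 of N1c_RBPJdel or array 1 or 2 of RBPJdel. With quantile normalization Th17 and Tfh genes had 1 rise each. The medians of glycolysis and ribosomal genes, -0.20 and -0.16, were -0.08 and -0.03 after quantile normalization, and that of Treg signature genes turned from -0.08 to 0.04.

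**Figure D5:**
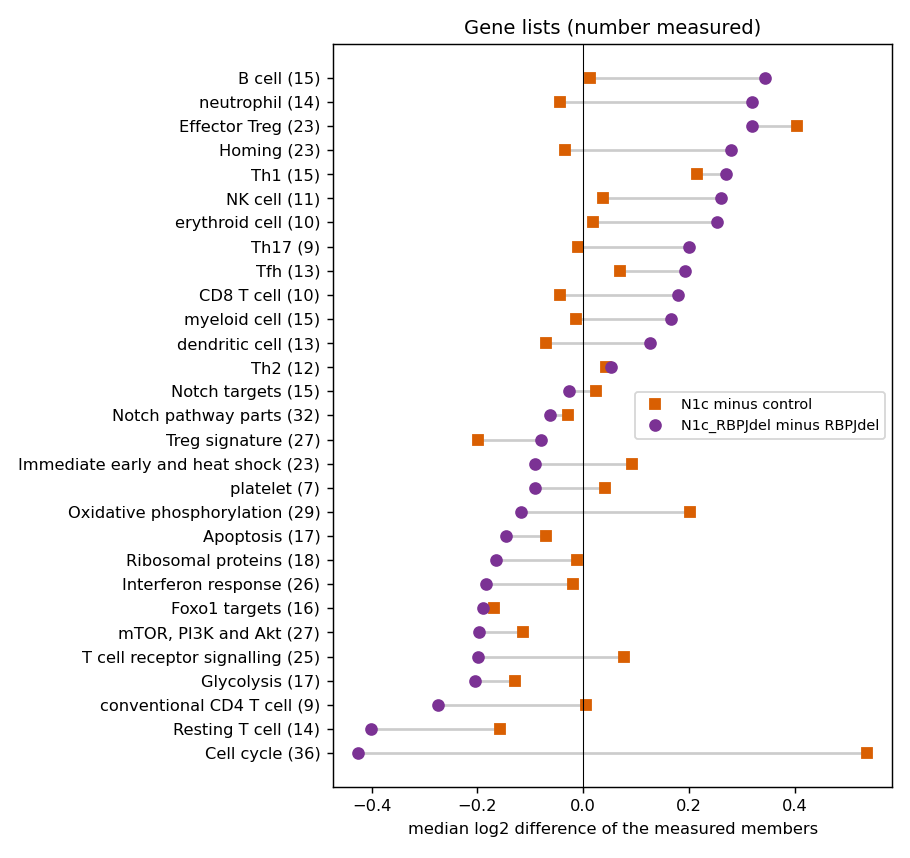
Median log2 difference of the measured members of each list without Rbpj (purple circles) and with Rbpj intact (orange squares), with the number of members measured in brackets. Marker lists of B cells and neutrophils lie highest without Rbpj, at 0.34 and 0.32, and cell cycle genes lowest, at -0.43.

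Markers of other cell types that the sort gated out or did not select moved with N1c_RBPJdel too. Of 14 neutrophil markers 5 were higher (S100a9, Ngp, Lcn2, Mmp8 and Mmp9) and 0 lower, beside 1.32% and 0.967% of all genes. The median of the 14 was 0.32, and their summed intensity was 755 to 833 in RBPJdel and 994.5 to 1162 in N1c_RBPJdel. Ngp and Mmp8, like the B cell genes Cd79a and Jchain below, lay among the dimmest 4938 genes. Of these 4938 genes 171 were called higher, and their median change was 0.14. S100a9, a calcium-binding protein of neutrophils, lay at 54.0 to 65.3 in RBPJdel and 88.2 to 121 in N1c_RBPJdel (0.84 ± 0.14, adjusted p = 0.00768). Its partner S100a8 lay at 29.9 to 36.9 and 33.4 to 40.1 (adjusted p = 0.499). Ngp, a granule protein, lay at 21.0 to 24.9 in RBPJdel and at 74.6, 45.5 and 28.1 in N1c_RBPJdel. The count of neutrophil calls was 2 without array 1 of N1c_RBPJdel and 3 without array 1 or 3 of RBPJdel. In these fits 76, 121 and 79 of all genes passed.

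Of 15 B cell markers 4 were higher (Ms4a1, Cd79a, Cd22 and Fcrla) and 0 lower, with a median of 0.34 and summed intensities of 1736 to 1808 and 1810.3 to 2616. Cd79a, a part of the B cell receptor, lay at 28.8 to 39.3 in RBPJdel and at 69.9, 57.5 and 50.1 in N1c_RBPJdel, and Jchain, which joins antibody units, at 22.1 to 27.1 and at 72.5, 54.5 and 44.7. H2-Ea, a class II antigen presentation gene, rose by 1.04 ± 0.12 to 74.9 to 110. These markers were highest in array 1, whereas Cd22 was highest in array 2. The count of B cell calls was 1 without array 1 of N1c_RBPJdel and 2 without array 3 of RBPJdel. In these fits 76 and 79 of all genes passed.

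Of 10 erythroid markers 2 were higher, Slc4a1 and Car1, a carbonic anhydrase of red cells, which lay at 54.0 to 71.8 in RBPJdel and at 852, 400 and 137 in N1c_RBPJdel (2.53 ± 0.37, adjusted p = 0.00423). The call of Slc4a1 ended in 13 of 28 alternatives, and the erythroid list had 1 rise without array 1 of N1c_RBPJdel or array 1 or 3 of RBPJdel and 3 without array 2 of N1c_RBPJdel. NK cell markers had 1 rise of 11 (Fcer1g) and conventional CD4 T cell markers 2 falls of 9 (Igfbp4 and Satb1). CD8 T cell, myeloid, dendritic cell and platelet markers had 0 calls by limma of 10, 15, 13 and 7. At an unadjusted p under 0.05 they had 3, 2, 4 and 3 members, again without the share of all genes at that cut. Without array 2 of N1c_RBPJdel, where 1890 of all genes passed, these 4 lists had 1, 2, 1 and 2 rises. Without array 4 of RBPJdel the CD8 T cell list had 1 fall. Conventional CD4 T cell markers had 3 falls without array 2 of N1c_RBPJdel and 1 when any single one of the other 6 arrays of the comparison was left out. These values moved with the group, and the part of other cells in the rises of Cd22, Mmp9, Ccl3, Ccr2 and Klrg1 was not tested.

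Genes beside the engineered loci were counted, since flanking chromosome can come with an allele. Of the 100 measured genes nearest to Gt(ROSA)26Sor, which holds the Notch1 transgene, 2 were called without Rbpj (Suclg2 and Oxtr), and of the 100 nearest to Rbpj 1 was (Tlr1), close to the 2.29% of all genes. Of 72 genes near Foxp3, 3 were called, Flicr, Ssxb3 and Ssxb5.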

How the data were processed

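Labelled RNA was read on Affymetrix whole-transcript mouse gene arrays. The deposited values are linear intensities of 24922 transcript clusters on 15 arrays, made with Affymetrix Power Tools and RMA, per the submitters' processing notes. Neither versions nor an annotation release were named in the sources used. The authors' intensities (5.61 to 18029.7) were taken to log2. Of the clusters 21425 named 1 gene, 1399 several and 2098 none; 21347 matched the GRCm38.p6 gene table by Entrez number. The brightest cluster stood for each of 921 genes with more than 1, which left 19752 genes. The number of arrays limits the precision.

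limma 3.58.1 in R 4.3.3 fitted 1 mean per group over all 15 arrays (residual degrees of freedom 11, prior 6.15), with two-sided tests and Benjamini-Hochberg adjustment over all genes at a threshold of 0.05. Intervals are 95% intervals of the fit. The script was tested on simulated data. Deviations from the group means correlated between N1c and control arrays of the same number (0.42, 0.34 and 0.50 for numbers 2, 4 and 5). N1c and control arrays of unlike number reached 0.37. Array 4 of RBPJdel correlated with array 4 of N1c (0.46) and of control (0.42). Other same-number pairs of RBPJdel with these groups lay between 0.07 and 0.17. Numbers did not pair N1c_RBPJdel with RBPJdel (0.21, -0.05 and 0.05).

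The members, gene lists and comparison were chosen with earlier results of these data known. Named genes were Notch1, Rbpj, Foxp3, Hes1, Hey1, Heyl, Dtx1, Nrarp and Cd22, the 12 largest rises and 12 largest falls among called genes without overlap, up to 8 genes called in both settings in the same and 8 in opposite directions, the 5 largest interactions each way, and up to 2 called members of each list. The rule passed over predicted genes, small RNAs, receptor segments and the vomeronasal and olfactory receptors. Cst7, Gpr15, Scin, Ccr3, Ms4a1, Fcrla, Lcn2, S100a8, Il10, Gzmb, Top2a, Rrm2, Ube2c, genes near the engineered loci and the remaining genes of the 28 lie outside this rule and were chosen after their values were seen. Alternatives were quantile and cyclic loess normalization, brighter genes only, the mean of a gene's clusters, array weights, a trended prior, only the groups compared, the replicate block and leaving out each array; the array range as a covariate and array 2 of N1c_RBPJdel alone were added after seeing the data.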

Additional observations from a re-analysis of the deposited data

Results flagged for a closer look

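The change with active Notch1 differed between Rbpj-deleted and Rbpj-intact Treg, by the interaction in limma, for 24 of the 57 named genes. Over all 19752 genes the interaction passed for 166 (0.84%). The named genes include those picked for the largest interactions each way. The count of 24 is therefore in part a result of that choice and is not read as an excess. A negative value means a lower change without Rbpj. Among Notch targets it was -2.99 for Hes1, -1.80 for Hey1, -2.43 for Heyl and -1.60 for Nrarp. The call of Nrarp ended in 9 of 26 alternatives. Other genes that rose with Rbpj intact had -2.88 (Cd22), -3.11 (Dnase1l3), -3.07 (Atp8a2), -1.40 (Gjb2), -0.99 (Abcb1a), -1.86 (H2ac15) and -1.37 (H1f1). Genes low in N1c_RBPJdel with no call when Rbpj was intact had -2.64 (Atp5md) and -1.25 (Cnpy2). Kcnf1 had -1.26, with RBPJdel the group that stood out. Its mean was 131.7 in RBPJdel, 55.3 in N1c_RBPJdel, 57.4 in control and 57.6 in N1c.

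Positive interactions were 2.55 for Car1, 1.34 for Jchain, 1.25 for Klrg1, 1.07 for H2-Ea, 1.05 for Cd79a, 0.89 for Mmp8 and 1.83 for Penk. Rln3, a relaxin-family peptide gene (2.02), Ccl5, a chemokine (1.78), and Fgl2, a secreted fibrinogen-like protein of Treg (1.68), fell with Rbpj intact by 1.31, 1.25 and 1.37 on the log2 scale. Without Rbpj they differed by 0.71, 0.53 and 0.31, none past the test (adjusted p = 0.113, 0.247 and 0.395).

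In 14 of 171 sets of 4 arrays, 1 array lay far from the other 3, where chance flags about 1 in 20. The sets share arrays and come from genes mostly picked on these data, so the count is not read as an excess. The flagged arrays were array 5 of control for Notch1 (836) and Spen (566), array 2 of control for Rbpj (571), and array 3 of control for Rab6b (473). In N1c they were array 2 for Zfp979 (10.7) and Rab6b (341), array 1 for Kcnk5 (80.5), and array 5 for Il4ra (767) and Fcer1g (72.8). In RBPJdel they were array 2 for Ngp (24.9), Stat2 (768) and Slc4a1 (144), array 1 for Rab6b (271) and array 4 for Foxn3 (856).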

How the results depend on the processing

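Of the 45 named genes called without Rbpj, 11 passed in all alternatives run (up to 28), 16 lost the call in 1 to 5 and 18 in more, and 0 reversed. The 452 calls (261 higher, 191 lower) became 192 (44 higher) with brighter genes only, 98 (57 and 41) with only the groups compared, 191 (99 and 92) with quantile normalization of brighter genes, and 226 (165 and 61) with array 2 of N1c_RBPJdel alone. Leaving out 1 array gave 76 to 1890 calls, 52 to 905 higher and 15 to 985 lower. It gave 217 to 383 calls for N1c minus control, 101 to 478 for the interaction, 3 to 45 genes called in both in the same direction and 0 to 7 in opposite directions. Array weights gave 733 calls for N1c minus control and 257 for the interaction, and the array range as a covariate 4 genes in opposite directions. Array 2 of N1c_RBPJdel alone left 17 genes called in both. The share of the N1c change left without Rbpj, 0.192, was 0.234 with brighter genes only, 0.235 with array 2 of N1c_RBPJdel alone, 0.257 for that array with quantile normalization, and 0.155 to 0.241 without 1 array. The causes of these moves were not tested.

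With the replicate number as a block over all arrays the counts were 2107 (918 higher, 1189 lower), 494 for N1c minus control, 632 for the interaction, 95 called in both in the same direction and 49 in opposite directions. Numbers did not pair N1c_RBPJdel with RBPJdel, and the block over these groups alone gave 545 calls.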
